A study of Mus musculus with 15 samples.

Results

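A set of 9 genes that encode the proteins and a lipid enzyme of central nervous system myelin was followed across hippocampi that had lost the glucocorticoid receptor (GR, encoded by Nr3c1), the mineralocorticoid receptor (MR, encoded by Nr3c2) or both. The genes were Mbp, Mobp, Mal, Cnp, Mag, Mog, Opalin, Ugt8a and Ermn, taken by name through the accession of each array probe. Of these 9 genes, 8 had a probe, with 14 probes in all, among 41174 probes on the array, and Ermn was not analysed here. All 8 genes and all 14 probes passed the filter on dim signal, which left 22864 genes for testing. Every one of the 14 probes was well above background on each of the 15 arrays, and none had a saturated spot.

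Total RNA of the whole hippocampus, taken from both hemispheres of a male C57BL/6 mouse of about 2.5 months, was labelled with Cy3 and hybridised to single-colour Agilent mouse arrays. The groups were 3 GRMREmx1-cre arrays (floxed GR and MR alleles with Emx1-Cre), 4 GREmx1-cre arrays (floxed GR allele with Emx1-Cre), 4 MREmx1-cre arrays (floxed MR allele with Emx1-Cre) and 4 dflox arrays (floxed alleles of both receptors). As the crosses are described, dflox mice served as the controls of all 3 knockouts, they carried no Cre, and no control carried Emx1-Cre alone. Emx1-Cre acts from dorsal forebrain progenitors onwards, which give rise to excitatory neurons and to part of the glia, and the share of hippocampal oligodendrocytes that lost a receptor was not measured here. Each genotype lay alone on 1 of 4 slides, so effects of the slide and of the genotype cannot be told apart. The labels name no animal beside the replicate number, so the p-values measure the spread between these arrays.

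Oligodendrocytes wrap axons with myelin, a stack of membrane that MBP compacts from the inside, and the genes that build it are switched on together when a progenitor matures. MOBP is a further basic protein of compact myelin, MAL is a membrane protein that sorts lipids and proteins into myelin, and CNP is an enzyme that keeps cytoplasmic channels open between the layers. MAG lies on the membrane facing the axon, MOG on the outermost layer, Opalin is a surface protein of mature oligodendrocytes, and Ugt8a makes galactosylceramide, the main glycolipid of myelin. Corticosteroids bind both GR and MR, and GR is present in oligodendrocytes as well as in neurons and astrocytes.

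All levels below are log2 intensities of a probe relative to the 75th percentile of its own array. Each difference is a log2 fold change with its standard error (SE). Tests were made with limma, and p-values were adjusted over the 22864 genes by the Benjamini-Hochberg method. A gene is said to have risen or fallen only where the adjusted p was under 0.05. Levels of different probes are not compared, since probes differ in brightness. The 75th percentile lay between 821 and 1027 intensity units on all arrays, and arrays correlated with each other at 0.978 to 0.992.

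The label check gave a clear answer for GR. Nr3c1 lay between -0.08 and 0.09 on GRMREmx1-cre arrays, between -0.66 and -0.53 on GREmx1-cre arrays and between 2.08 and 2.28 on MREmx1-cre arrays, against 1.49 to 1.79 on dflox arrays. The Nr3c2 probe lay between -4.01 and -3.71 on GRMREmx1-cre arrays, between -3.15 and -3.04 on GREmx1-cre arrays and between -3.76 and -3.46 on MREmx1-cre arrays, against -3.66 to -3.36 on dflox arrays. It was lower in GRMREmx1-cre than in dflox (-0.31 ± 0.09, adjusted p = 0.039) and than in GREmx1-cre (-0.73 ± 0.09, adjusted p = 0.00038), and higher in GREmx1-cre than in dflox (0.42 ± 0.09, adjusted p = 0.021). It did not separate the arrays labelled MREmx1-cre from dflox (difference of -0.11 ± 0.09, adjusted p = 0.48), and its place relative to the deleted part was not looked up here. MREmx1-cre below means the arrays so labelled.

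In the double knockout a single myelin gene, Mal, fell, to 69.8% of its dflox level, while the other 7 genes with a probe, Mbp included, did not pass the test in any comparison. Of the 8 genes, 1 fell and 0 rose in GRMREmx1-cre against dflox, where 16.3% of all genes tested were called in either direction 11.4% rose and 4.84% fell. With median scaling in place of the 75th percentile, 1539 of all genes rose and 1712 fell there, against 2610 and 1106 as reported. In GREmx1-cre against dflox 0 of 8 were called, where 3.15% of all genes were called. In MREmx1-cre against dflox 0 of 8 were called as well, where 6.81% of all genes were called. At an unadjusted p under 0.05 there was 1 gene in GREmx1-cre (Mal) and 1 in MREmx1-cre (Cnp), both named after their values were seen. The share of all genes at that unadjusted threshold is not given here. With 1 call among 8 genes, no difference from genes in general can be read from these counts. The 3 comparisons share the 4 dflox arrays, and in bulk tissue fewer oligodendrocytes and less RNA per oligodendrocyte cannot be told apart.

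**Figure D1:**
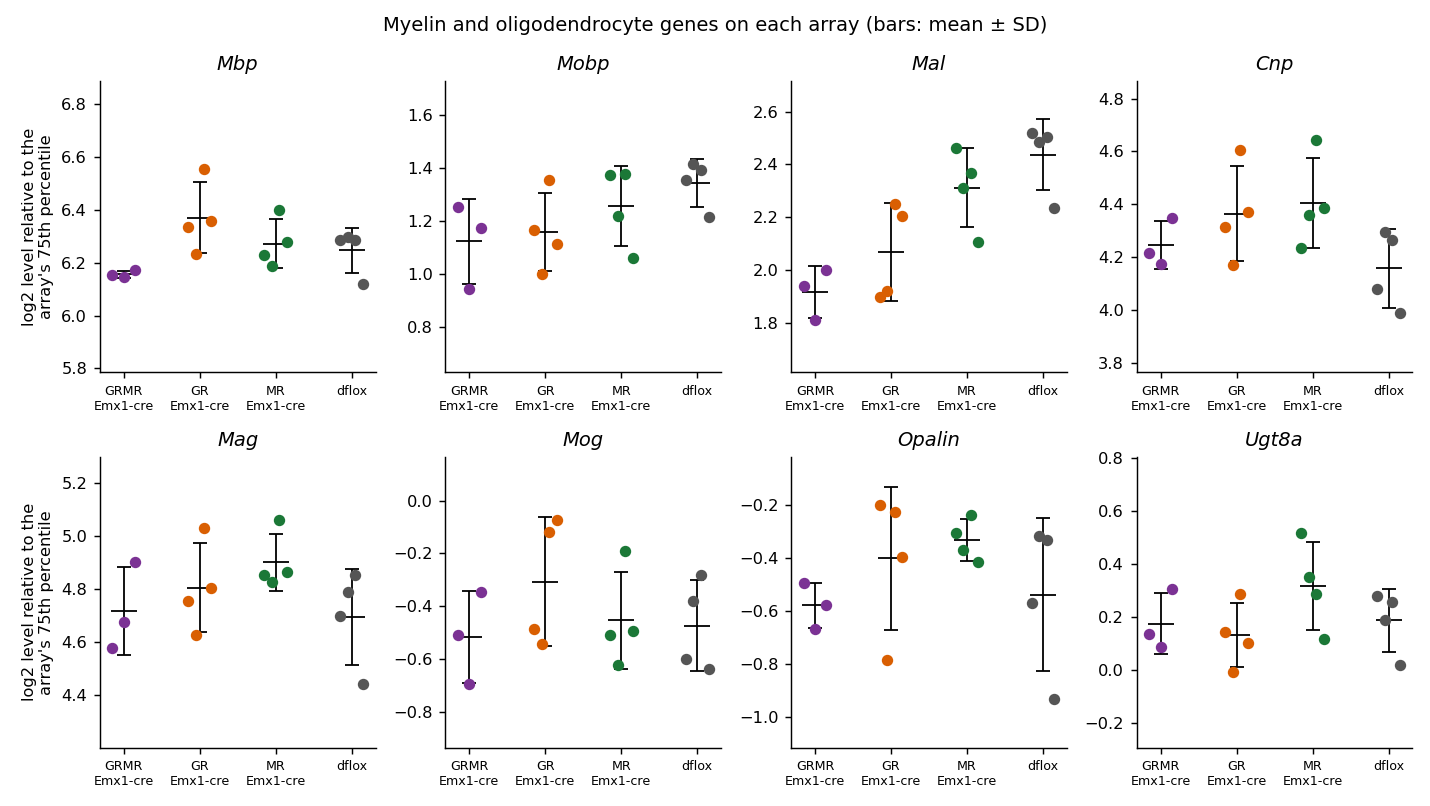
Log2 level of each myelin gene (its brightest probe, relative to the array's 75th percentile, vertical axis) on every array, with 3 GRMREmx1-cre arrays and 4 arrays of each other group; each point is an array and the bars give the mean ± SD. The 3 GRMREmx1-cre points of Mal lie below all 4 dflox points, while the points of the 7 other genes overlap dflox.

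Mal was the gene with the clearest difference. Its level was 1.94, 1.81 and 2.002 on the 3 GRMREmx1-cre arrays, 1.90, 1.92, 2.25 and 2.20 on the GREmx1-cre arrays, 2.46, 2.31, 2.37 and 2.11 on the MREmx1-cre arrays, and 2.52, 2.49, 2.51 and 2.24 on the dflox arrays. The double knockout arrays all lay below every dflox array and every MREmx1-cre array, and they overlapped the GREmx1-cre arrays. GRMREmx1-cre differed from dflox by -0.52 ± 0.11 (SE, adjusted p = 0.0068, 95% interval -0.76 to -0.28). GREmx1-cre differed from dflox by -0.37 ± 0.10 (adjusted p = 0.071), with 3 of its 4 arrays below every dflox array. MREmx1-cre differed from dflox by -0.12 ± 0.10 (adjusted p = 0.53). The order of the means was thus GRMREmx1-cre, GREmx1-cre, MREmx1-cre and dflox from low to high, and neighbours in that order overlapped.

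The GREmx1-cre value of Mal lay close to the threshold, and the second Mal probe fell on the other side of it. On that probe GRMREmx1-cre was at 1.57, 1.57 and 1.84, GREmx1-cre at 1.59, 1.55, 1.85 and 1.90, MREmx1-cre at 2.13, 1.99, 1.97 and 1.85, and dflox at 2.17, 2.09, 2.19 and 2.08. Both GRMREmx1-cre and GREmx1-cre lay wholly below dflox. The differences were -0.47 ± 0.10 for GRMREmx1-cre (adjusted p = 0.0074 over all probes) and -0.41 ± 0.09 for GREmx1-cre (adjusted p = 0.036), both past the threshold, and -0.15 ± 0.09 for MREmx1-cre (adjusted p = 0.41). With the mean of both probes, and also without dflox replicate 4, the GREmx1-cre difference passed on the gene level (-0.39 and -0.43, adjusted p = 0.046 in each case). For the double knockout, all 24 alternatives gave an adjusted p under 0.05 (0.0048 to 0.038).

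Mbp, the most studied myelin gene, stood at 6.15, 6.15 and 6.17 on the GRMREmx1-cre arrays, 6.33, 6.23, 6.55 and 6.36 on the GREmx1-cre arrays, 6.23, 6.19, 6.40 and 6.28 on the MREmx1-cre arrays, and 6.28, 6.30, 6.29 and 6.12 on the dflox arrays. The double knockout arrays were the most alike (SD 0.01, n = 3), and they lay below every GREmx1-cre and MREmx1-cre array but above the lowest dflox array. The difference from dflox was -0.09 ± 0.08 in GRMREmx1-cre (adjusted p = 0.47), 0.12 ± 0.07 in GREmx1-cre (adjusted p = 0.37) and 0.03 ± 0.07 in MREmx1-cre (adjusted p = 0.87). The probe had 10 spots and was flagged as read from the low photomultiplier scan on every array. The other 2 Mbp probes gave -0.09 and -0.02 in GRMREmx1-cre, -0.02 and 0.26 in GREmx1-cre, and -0.02 and -0.01 in MREmx1-cre, none of them called, so that the sign of the single knockouts was not shared by all 3 probes.

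Mobp was lower than dflox on average in all 3 knockouts without passing the test. Its level was 1.25, 0.94 and 1.18 on the GRMREmx1-cre arrays, 1.17, 1.002, 1.36 and 1.11 on the GREmx1-cre arrays, 1.37, 1.22, 1.38 and 1.06 on the MREmx1-cre arrays, and 1.35, 1.42, 1.39 and 1.22 on the dflox arrays. Each knockout overlapped dflox. The differences were -0.22 ± 0.10 (adjusted p = 0.17), -0.18 ± 0.10 (0.32) and -0.09 ± 0.10 (0.65) in GRMREmx1-cre, GREmx1-cre and MREmx1-cre. The second Mobp probe gave -0.18, -0.05 and 0.08 in the same order, so that MREmx1-cre changed sign between the probes.

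Cnp went the other way, with positive differences in all 3 knockouts and none called. Its level was 4.22, 4.17 and 4.35 on the GRMREmx1-cre arrays, 4.31, 4.17, 4.60 and 4.37 on the GREmx1-cre arrays, 4.23, 4.36, 4.64 and 4.38 on the MREmx1-cre arrays, and 4.08, 4.30, 4.27 and 3.99 on the dflox arrays. All groups overlapped. The differences from dflox were 0.09 ± 0.12 in GRMREmx1-cre (adjusted p = 0.67), 0.21 ± 0.11 in GREmx1-cre (adjusted p = 0.32) and 0.25 ± 0.11 in MREmx1-cre (adjusted p = 0.19).

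The 4 remaining genes also overlapped dflox in every knockout. Mag ranged from 4.58 to 4.90 in GRMREmx1-cre, 4.63 to 5.03 in GREmx1-cre and 4.83 to 5.06 in MREmx1-cre, against 4.44 to 4.85 in dflox. Its probe was read from the low photomultiplier scan on every array except dflox replicate 4, which gave the lowest value (4.44). The part of the scan setting in the Mag differences was not tested. Mog ranged from -0.69 to -0.34 in GRMREmx1-cre, -0.54 to -0.07 in GREmx1-cre and -0.62 to -0.19 in MREmx1-cre, against -0.64 to -0.28 in dflox. Neither of these adhesion proteins was called, with differences of 0.02, 0.11 and 0.21 for Mag and of -0.04, 0.17 and 0.02 for Mog in GRMREmx1-cre, GREmx1-cre and MREmx1-cre. The second Mag probe gave larger positive differences in the single knockouts, 0.30 in GREmx1-cre (adjusted p = 0.21 over all probes) and 0.27 in MREmx1-cre (adjusted p = 0.22), and 0.05 in GRMREmx1-cre. Opalin ranged from -0.67 to -0.49 in GRMREmx1-cre, -0.78 to -0.20 in GREmx1-cre and -0.42 to -0.23 in MREmx1-cre, against -0.93 to -0.32 in dflox. Ugt8a, the galactosylceramide synthase, ranged from 0.08 to 0.30 in GRMREmx1-cre, -0.01 to 0.29 in GREmx1-cre and 0.12 to 0.52 in MREmx1-cre, against 0.02 to 0.28 in dflox. The differences of Opalin were -0.04, 0.14 and 0.21 and those of Ugt8a were -0.01, -0.05 and 0.13 in GRMREmx1-cre, GREmx1-cre and MREmx1-cre.

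The size of change that these arrays left possible can be read from the 95% intervals. Over the 7 genes not called in GRMREmx1-cre against dflox, the intervals reached no lower than -0.44 and no higher than 0.34. In GREmx1-cre, with 8 genes, they spanned -0.59 to 0.46, where the low end belongs to Mal, and in MREmx1-cre -0.35 to 0.52. Differences of up to these sizes in single genes are thus within the intervals.

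**Figure D2:**
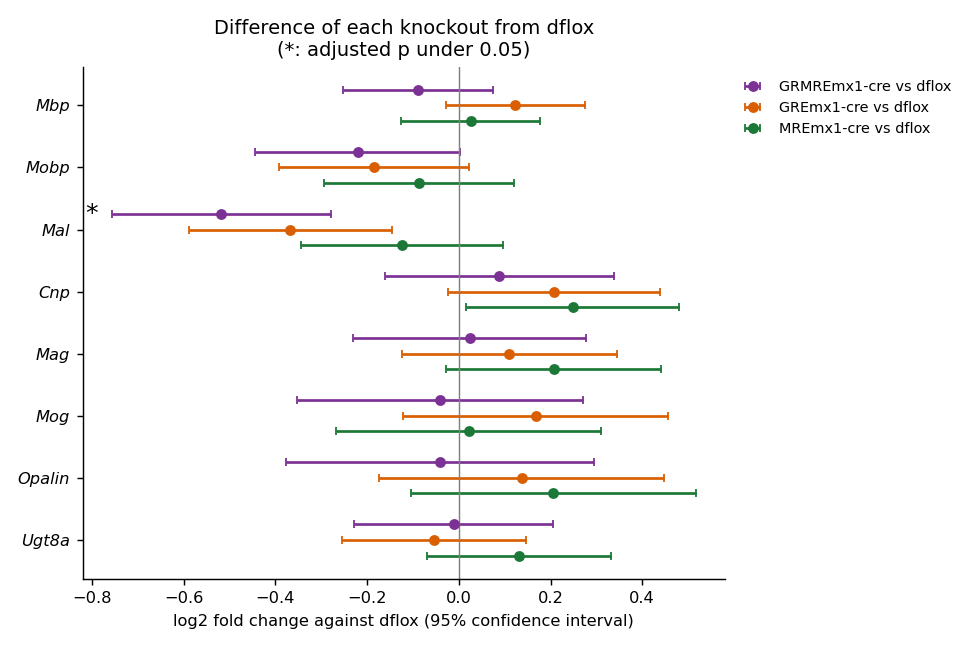
Log2 fold change against dflox (horizontal axis) of the 8 myelin genes in GRMREmx1-cre, GREmx1-cre and MREmx1-cre; points are limma estimates, bars are 95% confidence intervals, and the asterisk marks an adjusted p under 0.05. The asterisk stands at Mal in GRMREmx1-cre, and of the other intervals those of Mal in GREmx1-cre and Cnp in MREmx1-cre do not cross 0.

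The signs of the differences were set side by side for single and joint loss. Against dflox, 5 of 8 genes were positive and 3 negative in GREmx1-cre, 6 were positive and 2 negative in MREmx1-cre, and 2 were positive and 6 negative in GRMREmx1-cre. Mag and Cnp were positive, and Mal and Mobp negative, in all 3 knockouts, which makes 4 genes with 1 sign throughout. Mbp, Mog and Opalin were positive in both single knockouts and negative in the double knockout, which makes 3 genes. Ugt8a was negative in GREmx1-cre and GRMREmx1-cre and positive in MREmx1-cre. Its second probe gave -0.14, 0.11 and 0.14 in the same order, so that GRMREmx1-cre changed sign between the probes. These 3 sets of signs rest on the same dflox arrays, and most of the 95% intervals crossed 0. The medians over the 8 genes were -0.04 in GRMREmx1-cre, 0.12 in GREmx1-cre and 0.08 in MREmx1-cre, beside 0.03, 0.02 and 0.04 over all genes tested.

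Several of these signs depended on how the arrays were processed. The sign of Mag in GRMREmx1-cre was negative with median scaling (-0.06) and that of Mbp was 0.00057 with quantile normalization. Ugt8a, Mog, Opalin and Mag in GRMREmx1-cre and Mbp and Mog in MREmx1-cre changed sign when certain single arrays were left out. The count in GRMREmx1-cre turned to 5 positive and 3 negative without dflox replicate 3, and likewise without GRMREmx1-cre replicate 2. Without dflox replicate 4 it was 1 positive and 7 negative. In MREmx1-cre the count was 4 and 4 without dflox replicate 4 or without MREmx1-cre replicate 3. In GREmx1-cre it stayed at 5 and 3. Mal, Mobp, Cnp and Mag had the same sign in GREmx1-cre and in MREmx1-cre under all 24 alternatives, and so did Mal and Mobp in GRMREmx1-cre. Some of the 24 could not change a sign, such as leaving out an array that belongs to neither of the groups compared.

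The double knockout was then compared with each single knockout, which asks what loss of the second receptor adds. GRMREmx1-cre was lower than MREmx1-cre in 8 of 8 myelin genes, with differences between -0.39 and -0.06, and lower than GREmx1-cre in 7 of 8, between -0.21 and -0.04, Ugt8a being 0.04 higher. Both comparisons, and the interaction below, rest on the same 3 GRMREmx1-cre arrays, so their signs are not independent of each other. The median difference was -0.15 against MREmx1-cre and -0.13 against GREmx1-cre, beside 0.00133 and 0.02 over all genes. None of these passed the test, where 2.98% of all genes were called against MREmx1-cre and 16.1% against GREmx1-cre. At an unadjusted p under 0.05 there was 1 gene in each, Mal against MREmx1-cre (-0.39 ± 0.11, adjusted p = 0.079) and Mbp against GREmx1-cre (-0.21 ± 0.08, adjusted p = 0.074). In both cases the 3 double knockout arrays lay wholly below the 4 single knockout arrays. Opalin (-0.25, adjusted p = 0.46) and Mbp (-0.12, adjusted p = 0.48) lay wholly below MREmx1-cre as well. The share of all genes without such overlap is not given here. The second Mal probe gave -0.32 against MREmx1-cre, also without overlap, while the other 2 Mbp probes gave -0.07 and -0.28 against GREmx1-cre and overlapped. On the probe used, the Mbp difference passed the threshold without GREmx1-cre replicate 2 (-0.26, adjusted p = 0.044). The share of all genes at an unadjusted p under 0.05 is not given here.

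The interaction asks whether the loss of both receptors differed from the sum of the single losses, computed as GRMREmx1-cre minus GREmx1-cre, less MREmx1-cre minus dflox. It was called for 0 of 8 myelin genes, where 1.29% of all genes were called. The values were negative for 7 genes, from Opalin (-0.38 ± 0.21) and Cnp (-0.37 ± 0.16) through Mag (-0.29 ± 0.16), Mbp (-0.24 ± 0.10), Mog (-0.23 ± 0.20) and Ugt8a (-0.09 ± 0.14) to Mal (-0.03 ± 0.15), and positive for Mobp (0.05 ± 0.14). Their median was -0.23, beside -0.01 over all genes. On the probe used for each gene, the lowest adjusted p was 0.26, and Cnp and Mbp had an unadjusted p of 0.037 and 0.038. What share of all genes had an unadjusted p under 0.05 in the interaction is not given here. Mal, the gene with the largest loss, thus had an interaction close to 0, with a 95% interval of -0.35 to 0.30. The second Mag probe gave -0.52 (limma, unadjusted p = 0.013, adjusted p = 0.17 over all probes). The other 2 Mbp probes gave -0.06 and -0.27 (limma, unadjusted p = 0.60 and 0.16). Second probes gave -0.22 for Mobp, 0.08 for Mal and 0.11 for Ugt8a, so the sign of these genes was not shared between probes.

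The myelin genes varied together from array to array, also within groups. The correlation of each gene with the mean of the other 7 over the 15 arrays was between 0.47 (Mal) and 0.83 (Mag), and after the group means were subtracted it was between 0.64 (Ugt8a) and 0.87 (Mag), with Mal at 0.77. The mean of the 8 centred levels was -0.10, -0.20 and -0.01 on the GRMREmx1-cre arrays, -0.02, -0.18, 0.21 and 0.05 on the GREmx1-cre arrays, 0.09, 0.02, 0.20 and -0.02 on the MREmx1-cre arrays, and -0.01, 0.09, 0.11 and -0.21 on the dflox arrays. All 8 signs counted above therefore come from arrays on which these genes moved as a group, and they are not 8 independent observations. The lowest dflox array, replicate 4, was the lowest of its group for all 8 genes.

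**Figure D3:**
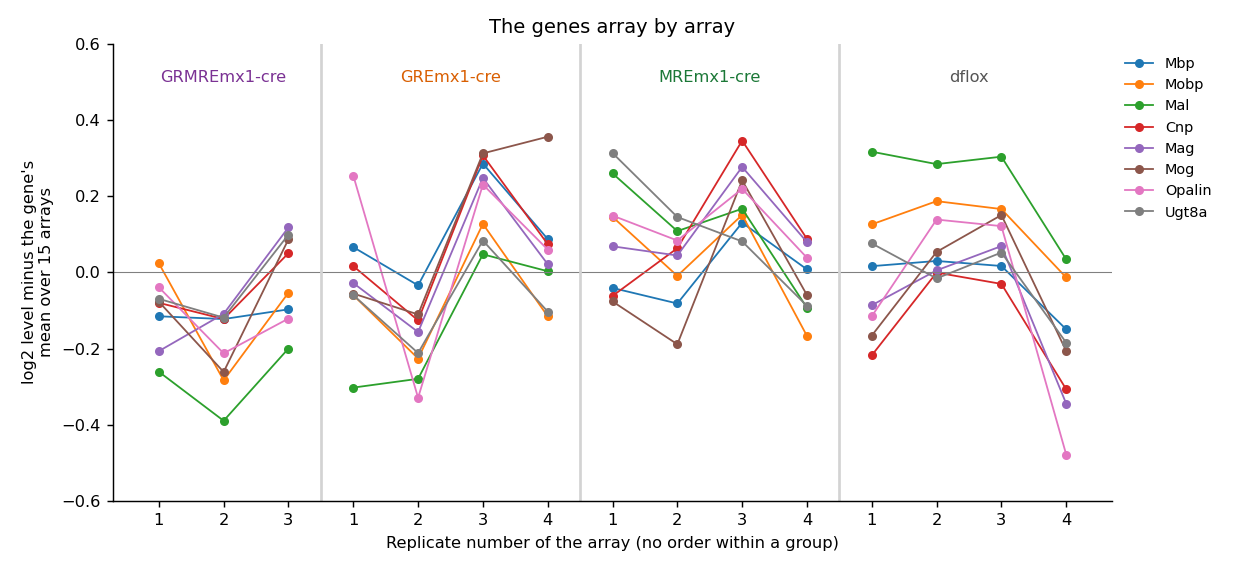
Level of each myelin gene on each array minus its mean over the 15 arrays (vertical axis, log2), with arrays along the horizontal axis by group and replicate number; a line joins the values of 1 gene within a group and carries no order. The genes move together on single arrays, with dflox replicate 4 low and replicate 3 of GREmx1-cre and of MREmx1-cre high, and Mal is the gene whose GRMREmx1-cre values are furthest below 0.

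Among 15870 genes with a symbol and a value on every array, the genes whose levels ran most like the mean of the myelin genes included Tmem63a (r = 0.85), Wnt3 (0.82), Tspan2 (0.82), Galnt6 (0.82), Kcnj8 (0.81), Fa2h (0.80) and Abca2 (0.80) over 15 arrays. After subtracting group means they included Plekhh1 (0.93), Slc45a3 (0.92), Trf (0.91), Sgk2 (0.88), Litaf (0.87), Tmem63a (0.86) and Rnf122 (0.86). Tspan2, Fa2h (a fatty acid hydroxylase for myelin lipids) and Trf (transferrin) were also on the lineage lists below. These correlations describe points that share an RNA sample and an array. None of the Tmem63a, Tspan2 and Fa2h differences from dflox was called.

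Promoter sequences of 8 of the 9 genes, 250 bases before and 50 after the start, were matched in RefSeq (GRCm38.p6), and 3 are shown, those of the gene that fell, of another gene with negative differences in all knockouts (Mobp) and of a gene with positive ones (Cnp), on the probe used for each. Capitals mark ACAAAG, the core bound by SOX factors such as SOX10, on either strand (CTTTGT where it lies on the opposite strand). Mal (chr2:127656646-127656945, minus strand) holds none, Mobp (chr9:120149492-120149791, plus strand) holds 6 and Cnp (chr11:100574689-100574988, plus strand) holds 1.
Mal: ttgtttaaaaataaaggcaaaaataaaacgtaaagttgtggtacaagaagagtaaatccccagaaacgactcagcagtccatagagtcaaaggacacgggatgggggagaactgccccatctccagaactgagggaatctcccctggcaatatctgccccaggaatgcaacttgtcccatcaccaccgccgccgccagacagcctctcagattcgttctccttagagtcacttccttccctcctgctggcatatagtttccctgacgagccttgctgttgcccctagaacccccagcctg
Mobp: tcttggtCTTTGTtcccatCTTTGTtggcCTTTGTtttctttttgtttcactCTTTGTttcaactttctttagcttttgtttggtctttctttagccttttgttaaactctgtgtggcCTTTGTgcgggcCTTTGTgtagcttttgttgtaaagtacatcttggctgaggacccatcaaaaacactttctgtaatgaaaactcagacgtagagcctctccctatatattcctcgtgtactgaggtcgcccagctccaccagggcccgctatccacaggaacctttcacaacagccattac
Cnp: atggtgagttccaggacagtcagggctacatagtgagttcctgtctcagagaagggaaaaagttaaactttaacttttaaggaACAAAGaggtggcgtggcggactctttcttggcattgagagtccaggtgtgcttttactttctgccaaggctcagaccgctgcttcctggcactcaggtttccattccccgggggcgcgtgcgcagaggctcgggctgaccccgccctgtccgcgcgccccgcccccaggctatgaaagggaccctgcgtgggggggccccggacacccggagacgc

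The motif ACAAAG occurs in 18.7% of 32851 RefSeq promoter windows of this length. Of the other myelin genes Opalin had 2 matches and 2 of the 3 Mag windows had 1, while Mog, Ugt8a and Ermn had none. The element that GR and MR both bind, searched as AGAACA followed after any 3 bases by its reverse complement TGTTCT, was in none of these promoters and in 3 of the 32851 windows. Its half-site AGAACA, on either strand and also inside the longer element, was likewise in none of them, and occurs in 19.0% of all windows. A match describes letters within this window and does not show a bound site.

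Further genes of the oligodendrocyte lineage were read against the shares of all genes tested. Of all genes, 11.4% rose and 4.84% fell in GRMREmx1-cre against dflox, 2.27% rose and 0.888% fell in GREmx1-cre, and 4.21% rose and 2.6% fell in MREmx1-cre. Of 18 further genes of mature oligodendrocytes, 5 rose and 0 fell in GRMREmx1-cre, 0 were called in GREmx1-cre, and 2 rose and 0 fell in MREmx1-cre. Klk6, a secreted protease of mature oligodendrocytes, had the largest difference. It lay between -1.95 and -1.66 in GRMREmx1-cre, -3.30 and -2.40 in GREmx1-cre and -3.50 and -2.69 in MREmx1-cre, against -3.92 to -3.00 in dflox. It was 3.13-fold higher in GRMREmx1-cre than in dflox (1.64 ± 0.27, adjusted p = 0.0014), with no overlap. In the single knockouts, which overlapped dflox, Klk6 differed by 0.73 ± 0.25 in GREmx1-cre (adjusted p = 0.13) and by 0.42 ± 0.25 in MREmx1-cre (adjusted p = 0.35). Serpinb1a, an inhibitor of proteases, rose by 0.64 ± 0.14 in GRMREmx1-cre (adjusted p = 0.0083). Grm3, a glutamate receptor that astrocytes express strongly too, rose by 0.53 ± 0.08 in GRMREmx1-cre (adjusted p = 0.00092) and by 0.30 ± 0.07 in MREmx1-cre (adjusted p = 0.032). The median of the 18 genes was 0.12 in GRMREmx1-cre, 0.04 in GREmx1-cre and 0.07 in MREmx1-cre.

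Among 24 further structural and lipid genes of myelin, 2 rose and 0 fell in GRMREmx1-cre, 1 rose and 1 fell in GREmx1-cre, and none was called in MREmx1-cre. The count of risers in GRMREmx1-cre is close to the 11.4% of all genes, so no difference from genes in general can be read from it. Gjb1, a connexin of myelin, rose by 0.32 ± 0.10 in GRMREmx1-cre (adjusted p = 0.040) and by 0.44 ± 0.09 in GREmx1-cre (adjusted p = 0.021). Arsa, the lysosomal enzyme that degrades sulfatide, rose by 0.28 ± 0.06 in GRMREmx1-cre (adjusted p = 0.0069). Jam3, a junctional adhesion molecule, fell by 0.33 on the log2 scale in GREmx1-cre (adjusted p = 0.0085) and differed by -0.02 ± 0.06 in GRMREmx1-cre. The medians were 0.02 in GRMREmx1-cre, -0.0046 in GREmx1-cre and 0.11 in MREmx1-cre. Of 19 genes of cholesterol synthesis, the pathway that supplies myelin with its main lipid, 1 rose in GRMREmx1-cre (Idi1, 0.24 ± 0.07, adjusted p = 0.039) and 0 were called in either single knockout.

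Of 10 transcription factors of the lineage, 2 rose and 1 fell in GRMREmx1-cre, 1 rose in GREmx1-cre and 1 fell in MREmx1-cre. St18, a zinc finger factor that neurons also express, lay between -0.45 and -0.30 in GRMREmx1-cre, 0.46 and 0.64 in GREmx1-cre and -0.38 and 0.00311 in MREmx1-cre, against 0.27 to 0.69 in dflox. It fell to 53.9% of dflox in GRMREmx1-cre (-0.89 ± 0.10, adjusted p = 0.00018) and to 61.1% in MREmx1-cre (-0.71 ± 0.09, adjusted p = 0.00095), both without overlap, and differed by -0.01 ± 0.09 in GREmx1-cre. Tcf7l2, a factor of newly formed oligodendrocytes and of thalamic neurons, rose by 0.44 ± 0.07 in GRMREmx1-cre (adjusted p = 0.0012). Nkx2-2 rose by 0.57 ± 0.15 there (adjusted p = 0.018). Myrf, the factor that switches on myelin genes such as Mbp and Mag, rose by 0.40 ± 0.09 in GREmx1-cre (adjusted p = 0.030) and differed by 0.01 ± 0.09 in GRMREmx1-cre and 0.03 ± 0.09 in MREmx1-cre. The Myrf probe was dim, and the call was lost under 11 of the alternatives, with quantile normalization giving 0.27 (adjusted p = 0.16).

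Of 10 genes of newly formed oligodendrocytes, 0 were called in GRMREmx1-cre and MREmx1-cre, and Prom1, a membrane protein also found on neural stem cells, fell by 0.64 on the log2 scale in GREmx1-cre (adjusted p = 0.020). Of 12 genes of oligodendrocyte progenitors, 5 rose in GRMREmx1-cre, 1 in GREmx1-cre and 3 in MREmx1-cre, and none fell, where 11.4%, 2.27% and 4.21% of all genes rose. Vcan, a matrix proteoglycan, rose by 0.47 ± 0.08 in GRMREmx1-cre (adjusted p = 0.0015) and by 0.33 ± 0.07 in MREmx1-cre (adjusted p = 0.017). C1ql1, a secreted protein that neurons express as well, rose in all 3, by 0.32 ± 0.07 in GRMREmx1-cre (adjusted p = 0.0064), 0.29 ± 0.06 in GREmx1-cre (adjusted p = 0.028) and 0.30 ± 0.06 in MREmx1-cre (adjusted p = 0.014). The defining progenitor markers did not pass: Pdgfra, the receptor for platelet-derived growth factor, differed by 0.19 ± 0.11 in GRMREmx1-cre and Cspg4, the NG2 proteoglycan, by 0.14 ± 0.08. With median scaling 1 of the 12 progenitor genes, against 5 above, was called in GRMREmx1-cre. The same scaling called 4 mature oligodendrocyte genes there (all higher), 0 of the structural and lipid genes, 0 of cholesterol synthesis and 2 of newly formed oligodendrocytes (both lower). The median of the list was 0.26 in GRMREmx1-cre, -0.04 in GREmx1-cre and 0.17 in MREmx1-cre.

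**Figure D4:**
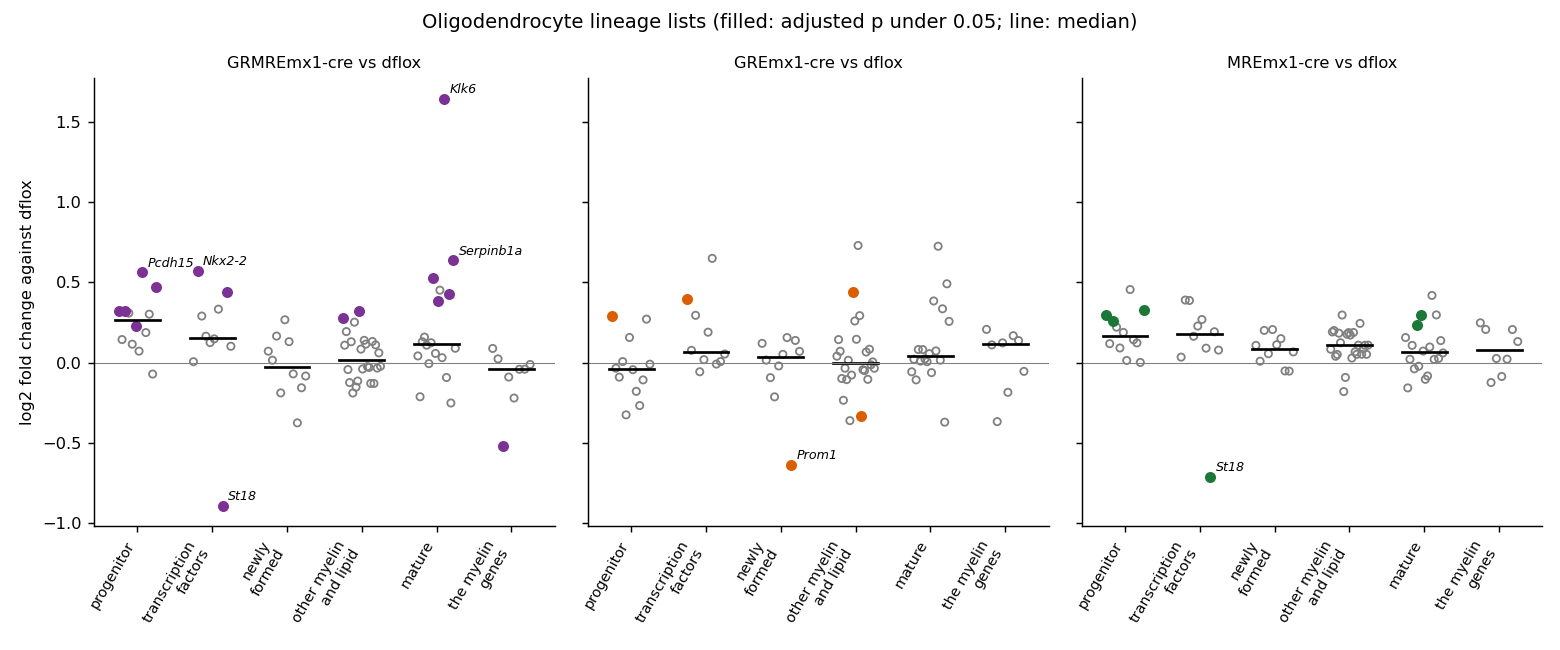
Log2 fold change against dflox (vertical axis) of each tested gene of 6 lists of the oligodendrocyte lineage, by comparison; filled points had an adjusted p under 0.05, open points did not, and the line is the median of the list. Klk6 stands highest and St18 lowest in GRMREmx1-cre, and the line of the myelin genes lies at -0.04 there.

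Markers of other cells moved on the same arrays, and their part in these differences was not tested. Of all genes, 11.4% rose and 4.84% fell in GRMREmx1-cre against dflox. In GREmx1-cre 2.27% rose and 0.888% fell, and in MREmx1-cre 4.21% rose and 2.6% fell. Whether the small lists below differ from these shares was not tested. Of 8 microglia markers, 5 rose in GRMREmx1-cre, 4 rose in MREmx1-cre, and 1 fell in GREmx1-cre. The mean centred level of the 8 lay between 0.16 and 0.34 on GRMREmx1-cre arrays, -0.20 and -0.09 on GREmx1-cre arrays and 0.13 and 0.16 on MREmx1-cre arrays, against -0.24 to -0.09 on dflox arrays. Of 8 astrocyte markers, 2 rose and 1 fell in GRMREmx1-cre. The risers were Aqp4 (0.76) and Gfap (0.43, adjusted p = 0.011), and Gjb6 fell (-0.57). Aqp4 (0.43) and Gjb6 (-0.54) were also called in GREmx1-cre, and Gfap (0.34) in MREmx1-cre. Of 5 tested genes of Schwann cell myelin, the myelin of peripheral nerve, 4 rose in GRMREmx1-cre, among them Prx (0.99 ± 0.21, adjusted p = 0.0063), whose probe was dim. With median scaling 2 of these 5 were called, and the call of Drp2 was lost under 18 of the 24 alternatives. Prx also labels blood vessels. Of 8 neuron markers, 2 rose and 1 fell in GRMREmx1-cre, and 0 of 6 endothelial, 6 choroid plexus and 6 neocortex markers were called there. Of 6 fibroblast markers, 1 rose (Dcn) and 2 fell (Col1a2 and Ogn) in GRMREmx1-cre, and 2 fell in each single knockout. Of 6 tested thalamus and habenula markers, 2 rose in GRMREmx1-cre (Plekhg1 by 0.72 and Lef1 by 0.22), 2 in MREmx1-cre and 0 in GREmx1-cre, and their part in the difference of Tcf7l2 was not tested.

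Markers of neighbouring tissue set single arrays apart. The mean centred level of 6 thalamus and habenula markers was 0.98 on GREmx1-cre replicate 1, against -0.27 to -0.21 on the other GREmx1-cre arrays and -0.17 to 0.01 on dflox arrays. Without that array Mal differed by -0.31 (adjusted p = 0.16), Mbp by 0.13 (adjusted p = 0.4) and Cnp by 0.22 (adjusted p = 0.36) in GREmx1-cre against dflox. The mean of 6 choroid plexus markers was -4.19 on MREmx1-cre replicate 2, while the other arrays of the group lay between 0.11 and 1.03. When it was left out, Mal differed by -0.12 (adjusted p = 0.61), Mbp by 0.05 (adjusted p = 0.76) and Cnp by 0.26 (adjusted p = 0.25) in MREmx1-cre against dflox.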

How the data were processed

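The submitters' processing notes name Agilent Feature Extraction 12.0 as the source of the scanner files of 15 single-colour arrays. The deposited processed signal is, per the file headers, a background-corrected intensity, other columns hold flags (0 or 1), and 2 photomultiplier settings were combined. The value table the authors deposited held the same intensity at 45018 of 45018 spots. Values were put on the log2 scale minus each array's 75th percentile over 43379 spots that were not controls. Outlier spots were left out, spots of a probe averaged, and a probe entered the tests if 3 or more arrays had it well above background, with the brightest probe standing for its gene. Probes were named by accession through RefSeq (GRCm38.p6), which gave 28223 of 41174 probes 1 symbol. The 15 arrays were fitted together, with a mean for each group, by limma 3.58.1 under R 4.3.3, which was tested on simulated data. Members and lists were chosen with earlier results of these data known. Genes named from a list were its members with the 4 smallest p-values against dflox and the defining markers. The 8 genes most like the members were ranked by Pearson's r, and a gene of that ranking and one of a list are not reported here. Alternatives were quantile normalization, median scaling, normexp, the value table, other probe filters and averages, a replicate block, fits to the compared groups and leaving out each array. The number of arrays limits the precision.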

Additional observations from a re-analysis of the deposited data

Results flagged for a closer look

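Among 72 checks of groups of 4 arrays, over the 8 myelin genes and 16 gene lists, 6 had an array far from the other 3, and chance alone gives about 1 in 20 such groups. In dflox, replicate 4 stood apart at 6.12 for Mbp, against 6.28 to 6.30 on the other dflox arrays, and at 2.24 for Mal, against 2.49 to 2.52. In MREmx1-cre, replicate 3 stood apart at 5.06 for Mag, against 4.83 to 4.86. The mean centred level of mature oligodendrocyte genes was 0.077 on MREmx1-cre replicate 1, against -0.05 to -0.03 on the others. The mean of the Schwann cell myelin genes was -0.42 on dflox replicate 4, against -0.14 to -0.08. The mean of the thalamus and habenula markers was 0.98 on GREmx1-cre replicate 1, against -0.27 to -0.21.

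The effect of losing GR differed with the presence of MR for Hopx, Gpr34 and Nr3c2, by the interaction in limma. It was looked up for the myelin genes, the receptor genes and the genes with the smallest p-values of each list. Those p-values against dflox came from these same arrays. Of all genes tested, 1.29% were called in the interaction. Hopx, a homeodomain protein that astrocytes express too, had an interaction of 0.55 (adjusted p = 0.034), and Gpr34, a microglia receptor, one of 0.51 (adjusted p = 0.013). The probe of Nr3c2, the gene of MR itself and thus a target of the cross, had one of -0.62 (adjusted p = 0.039).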

How the results depend on the processing

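Of 1144 recomputed values of the 8 myelin genes, 50 changed sign, 11 passed the threshold where they had not, and 1083 kept their sign and their side of it. Part of these alternatives could not change a sign. The value table held the same intensities, and a fit to the compared groups keeps their means. An array outside the compared groups does not enter their difference. The 1083 values thus overstate how far the signs were put to a test. Mal in GRMREmx1-cre against dflox was called under all 24 alternatives, as were Klk6, Grm3, Tcf7l2, Vcan and St18 in GRMREmx1-cre and St18 in MREmx1-cre. The cause of the changes below was not tested.

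The replicate number is also the slide position. Over 21 pairs of same-numbered arrays the correlation of deviations was -0.03 to 0.19, above 0.1 in 6. Most of these values were positive, so arrays of the same number were at most weakly alike. With the replicate number as a block, 2 myelin genes fell in GRMREmx1-cre against dflox (Mobp at -0.26, adjusted p = 0.044, beside Mal) and 1 against GREmx1-cre (Mbp at -0.23, adjusted p = 0.046). Mag in GRMREmx1-cre against dflox was -0.0092 and Ugt8a against GREmx1-cre -0.0012 under the block, which called 929 genes in GREmx1-cre, 1833 in MREmx1-cre and 3833 in GRMREmx1-cre against dflox, beside 721, 1557 and 3716 without it.

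Normexp, on the median spot signal and chosen after seeing the data since the planned version on the mean spot signal was not run, shifted the median of all genes in GRMREmx1-cre against dflox to 0.42, against 0.03 as reported. It called 14111 genes there, 14076 against GREmx1-cre and 13661 against MREmx1-cre, but 13 in GREmx1-cre and 105 in MREmx1-cre against dflox and 1 in the interaction. Myelin genes called were then 2, 2 and 3 in the comparisons of GRMREmx1-cre with dflox, GREmx1-cre and MREmx1-cre. Against dflox Mog was 0.25, Mag -0.30, Cnp -0.10, Opalin 0.11, Arsa -0.012, Cspg5 -0.011 and Idi1 -0.027. Against GREmx1-cre Mog was 0.072, Opalin 0.010 and Ugt8a -0.022, against MREmx1-cre Mog was 0.19, and in the interaction Mog was 0.017 and Mobp -0.075.

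With the mean over probes 1 myelin gene was called in GREmx1-cre against dflox (Mal), Mbp in MREmx1-cre was -0.00068 and Ugt8a in GRMREmx1-cre 0.049, and the interactions were -0.084 for Mobp, 0.029 for Mal and 0.012 for Ugt8a. Median scaling gave -0.059 for Mag in GRMREmx1-cre, and quantile normalization 0.00057 for Mbp there and 0.011 for the Mal interaction. Genes called in GREmx1-cre against dflox were 440 with median scaling, 425 with quantile normalization, 471 with no filter and 346 with only the compared groups. In MREmx1-cre they were 1029 with median scaling and 695 with only the compared groups, in GRMREmx1-cre against MREmx1-cre 420 with only the compared groups, and in the interaction 182 with median scaling and 138 with no filter. Split by direction, median scaling called 247 up and 193 down in GREmx1-cre and 524 up and 505 down in MREmx1-cre against dflox, beside 518 up and 203 down, and 962 up and 595 down, as reported. Quantile normalization called 245 up and 180 down in GREmx1-cre. Median scaling called 1539 up and 1712 down in GRMREmx1-cre against dflox, beside 2610 up and 1106 down, and 288 up and 170 down against MREmx1-cre, beside 538 up and 143 down.

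Leaving out 1 array at a time gave 268 to 783 genes in GREmx1-cre, 1013 to 1591 in MREmx1-cre and 2265 to 3897 in GRMREmx1-cre against dflox, 2079 to 3789 against GREmx1-cre, 230 to 757 against MREmx1-cre and 83 to 434 in the interaction. Myelin genes called were 0 to 1 in GREmx1-cre against dflox and 0 to 1 in GRMREmx1-cre against GREmx1-cre. Values that changed sign spanned, against dflox, -0.017 to 0.054 for Mbp and -0.066 to 0.086 for Mog in MREmx1-cre, and -0.069 to 0.094 for Mag, -0.13 to 0.047 for Mog, -0.17 to 0.033 for Opalin and -0.076 to 0.033 for Ugt8a in GRMREmx1-cre. In GRMREmx1-cre against GREmx1-cre they spanned -0.021 to 0.10 for Ugt8a and -0.10 to 0.054 for Mobp, against MREmx1-cre -0.15 to 0.026 for Mog, and in the interaction -0.094 to 0.040 for Mal and -0.015 to 0.14 for Mobp. Of the lineage calls in the report, those in GREmx1-cre were lost under 11 alternatives for Myrf, 10 for C1ql1, 5 for Gjb1, 2 for Jam3 and 2 for Prom1. In MREmx1-cre they were lost under 9 for Grm3, 4 for Vcan and 2 for C1ql1, and in GRMREmx1-cre under 10 for Gjb1, 10 for Idi1, 4 for Nkx2-2, and 1 each for Arsa, Serpinb1a, C1ql1 and Prx, besides normexp, with which the sign of Arsa and Idi1 turned.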
